A study of Mus musculus with 9 samples.

Results

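The levels of 7 long noncoding RNAs were examined in mouse 3T3-L1 cells, namely Neat1, Malat1, Tug1, Kcnq1ot1, Airn, Meg3 and H19. They were taken from the array by gene symbol, synonym or transcript, which gave 20 probes of 41174 gene probes, for 7 genes of 19822 named genes. All 20 probes are accounted for here. Malat1 was picked partly because it was low on the array of X-3 replicate 1, so its values on comparisons that use that array are a description and have no test. The other genes were named by RNA class.

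Neat1 builds paraspeckles, nuclear bodies that hold RNA-binding proteins, and Malat1 sits in nuclear speckles, where splicing factors collect. Kcnq1ot1 and Airn are imprinted transcripts, made from the paternal copy, that silence neighbouring genes on the same chromosome. H19 and Meg3 are made from the maternal copy of imprinted domains that also hold the growth factor gene Igf2 and the preadipocyte gene Dlk1, while Tug1 is a widely expressed nuclear and cytoplasmic RNA. All 7 act as RNA.

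The study profiled 3T3-L1, a mouse fibroblast line that can become fat cells, in order to describe the expression changes brought by mangiferin derivatives. The groups were X-3 at 70 µM for 24 h, X-1 at 70 µM for 24 h and untreated control, with 3 one-colour arrays each. All 3 groups had been grown in 10% serum and then kept without serum for 48 h, and all were described as preadipocytes. X-3 and X-1 are code names. The labels name no vehicle, so the control is called untreated here. The cells are 1 established line without other cell types of fat tissue, and the design text calls the 9 experiments independent. Of 8 fixed preadipocyte and fibroblast markers, 8 were well above background on all arrays of every group, and 0 of 6 mature adipocyte markers were so on all 3 arrays of any group. Among the adipocyte markers, the adipokine gene Adipoq was above background on 2 X-3, 1 X-1 and 0 control arrays, the lipid droplet gene Plin1 on 2, 0 and 0, and Cidec on 2, 1 and 1, while Lep, Slc2a4 and Cfd were so on 0 arrays. Adipoq averaged -5.59 in X-3, -6.05 in X-1 and -7.96 in control cells on the scale explained below. Of the 5 leukocyte markers, Adgre1 and Itgam were above background on 0 arrays and Ptprc on 1 X-3 array, while Cd68 and Csf1r were so on all 9. Cd68 averaged -2.63, -3.01 and -3.74 and Csf1r -0.98, -1.12 and -2.23 in X-3, X-1 and control cells. Of the 4 endothelial markers, Pecam1, Cdh5 and Kdr were above background on 0 arrays and Tek on all 9. Of the 4 epithelial markers, Epcam and Cdh1 were so on 0 arrays, Krt18 on 3 X-3, 0 X-1 and 1 control arrays, and Krt8 on all 9, with means of -1.22, -1.71 and -3.60 in X-3, X-1 and control cells. Adipoq, Cd68, Csf1r and Krt8 thus had higher means in both treated groups than in control cells. Most preadipocyte markers had lower means there. Pdgfra averaged 3.33 in X-3, 3.32 in X-1 and 4.68 in control cells, and Pdgfrb 4.65, 4.43 and 5.86. In the same order Fbn1 averaged 2.25, 2.36 and 3.39, Thy1 4.99, 5.0 and 5.84, and Zfp423 -3.19, -3.67 and -2.66. Col1a1, Col1a2, Tek and Slc2a4 were also lower in both treated groups, and Dlk1 was higher. The part of such genes in the results was not tested. In such bulk RNA, fewer cells of a type and less RNA per cell cannot be told apart.

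Each value is the log2 intensity of a probe minus the 75th percentile of log2 intensity over all gene probes of the same array. A value of 1 is therefore a signal at double that percentile, and a level can be compared between arrays but not between probes. Each array had 43379 gene spots with 0 saturated, and 57.9% to 67.1% of them were well above background. Replicates 1, 2 and 3 lay on slides 1, 2 and 3, each slide held 1 array of every group, and slide 1 was scanned on another day with an earlier software version. On each slide the X-3, X-1 and control arrays took positions 3, 2 and 1, so group and position cannot be told apart. The array of X-3 replicate 1 stood apart: 15% of its 25288 kept probes lay over 1 log2 unit from the mean of the other X-3 arrays, against 0.981% to 5.65% on the other 8 arrays. X-3 values of the noncoding RNA probes and counts over gene lists are therefore given with and without it. The calls against control of the single neighbours and listed genes named below for X-3 were the same without it, apart from Kcnq1, Cd81, Srsf6 and Srsf1. Srsf6 and Srsf1 passed as lower than control only without it, at -0.45 and -0.34 log2 (limma, adjusted p = 0.0122 and 0.0486).

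Of the 20 probes, 15 passed the filter, which kept a probe if the 3 arrays of some group all showed it well above background. They covered 6 of the 7 RNAs. The filter can favour probes that are high in 1 group, so the counts below are counts of kept probes and are not evidence on their own. Where groups are said below not to overlap, this only describes the arrays. The share of all probes whose groups did not overlap was not counted. Against control, 54.0% of all kept probes passed in X-3 and 54.7% in X-1 cells, in either direction. All 3 Meg3 probes were well above background on 0 of 9 arrays. Probe 5 of Kcnq1ot1 was so on 0 arrays and probe 6 on 1 array, X-1 replicate 2.

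The probes are printed because several of them read the same RNA at different places and gave different values. Numbers run from 5′ to 3′ along each RNA, sequences are 5′ to 3′ from the array files, and coordinates are those the files give in mouse build mm9, which place Neat1, Malat1, Tug1, Kcnq1ot1 and H19 on the minus strand and Airn and Meg3 on the plus strand. The Neat1 probe lies at chr19:5842564-5842623 and is listed under the older name 2310043N10Rik. Malat1 probes 1 to 4 lie at chr19:5802193-5802252, chr19:5800526-5800585, chr19:5799100-5799159 and chr19:5798230-5798289, so probe 4 is 3963 bases downstream of probe 1.
Neat1: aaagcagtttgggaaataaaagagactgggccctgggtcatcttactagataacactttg
Malat1 probe 1: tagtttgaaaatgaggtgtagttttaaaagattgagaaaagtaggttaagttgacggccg
Malat1 probe 2: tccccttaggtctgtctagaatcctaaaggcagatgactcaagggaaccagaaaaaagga
Malat1 probe 3: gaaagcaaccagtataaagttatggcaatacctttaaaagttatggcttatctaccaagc
Malat1 probe 4: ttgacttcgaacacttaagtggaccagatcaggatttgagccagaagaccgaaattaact

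Kcnq1ot1 probes 1 to 4 lie at chr7:150463034-150463093, chr7:150443564-150443623, chr7:150434523-150434582 and chr7:150425115-150425174, so that probe 4 is 37919 bases downstream of probe 1. Airn probes 1 to 3 lie at chr17:12944037-12944096, chr17:12957757-12957816 and chr17:12993902-12993961, and probe 3 is 49865 bases downstream of probe 1. In the reference gene table Kcnq1ot1 overlaps the potassium channel gene Kcnq1, and Airn, on the plus strand, overlaps Igf2r and Mas1, on the minus strand.
Kcnq1ot1 probe 1: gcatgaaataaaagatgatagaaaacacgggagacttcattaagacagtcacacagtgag
Kcnq1ot1 probe 2: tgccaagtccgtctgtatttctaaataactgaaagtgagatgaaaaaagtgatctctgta
Kcnq1ot1 probe 3: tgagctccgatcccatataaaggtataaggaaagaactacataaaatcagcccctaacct
Kcnq1ot1 probe 4: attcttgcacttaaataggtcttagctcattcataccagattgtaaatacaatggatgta
Airn probe 1: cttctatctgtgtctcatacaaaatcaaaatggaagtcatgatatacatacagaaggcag
Airn probe 2: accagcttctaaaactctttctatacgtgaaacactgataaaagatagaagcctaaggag
Airn probe 3: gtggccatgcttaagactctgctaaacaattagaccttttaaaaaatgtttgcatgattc

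The Tug1 probe lies at chr11:3544194-3544253. H19 probe 1 is listed at chr7:149762018-149762165, a span of 148 bases for a probe of 60, and H19 probe 2 lies at chr7:149761769-149761828. The span of H19 probe 1 is longer than the probe itself, as is that of Meg3 probe 1, which covers 8486 bases. The H19 probes enter the comparison between X-3 and X-1 described further on.
Tug1: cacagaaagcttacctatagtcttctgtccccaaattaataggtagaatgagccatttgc
H19 probe 1: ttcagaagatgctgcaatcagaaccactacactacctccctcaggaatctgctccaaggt
H19 probe 2: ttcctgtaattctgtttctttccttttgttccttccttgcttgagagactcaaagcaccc

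Neat1, Tug1 and the 2 most upstream Kcnq1ot1 probes were higher in both treated groups than in untreated cells. H19 was higher in X-3 cells, and Neat1 was higher in X-3 than in X-1 cells. Malat1 gave no single answer, since its 4 probes differed in size. On 3 of 6 treated arrays they also differed in direction from the control array of the same slide. Those 3 include X-3 replicate 1, on which Malat1 was picked, so that array is no evidence. X-1 replicate 3 was counted only through a difference of -0.05 on probe 1. In the fit over all 9 arrays no Airn probe passed, although probe 3 was lower in X-3 cells with the slide as a block and under some other settings. Meg3 was not well above background.

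**Figure D1:**
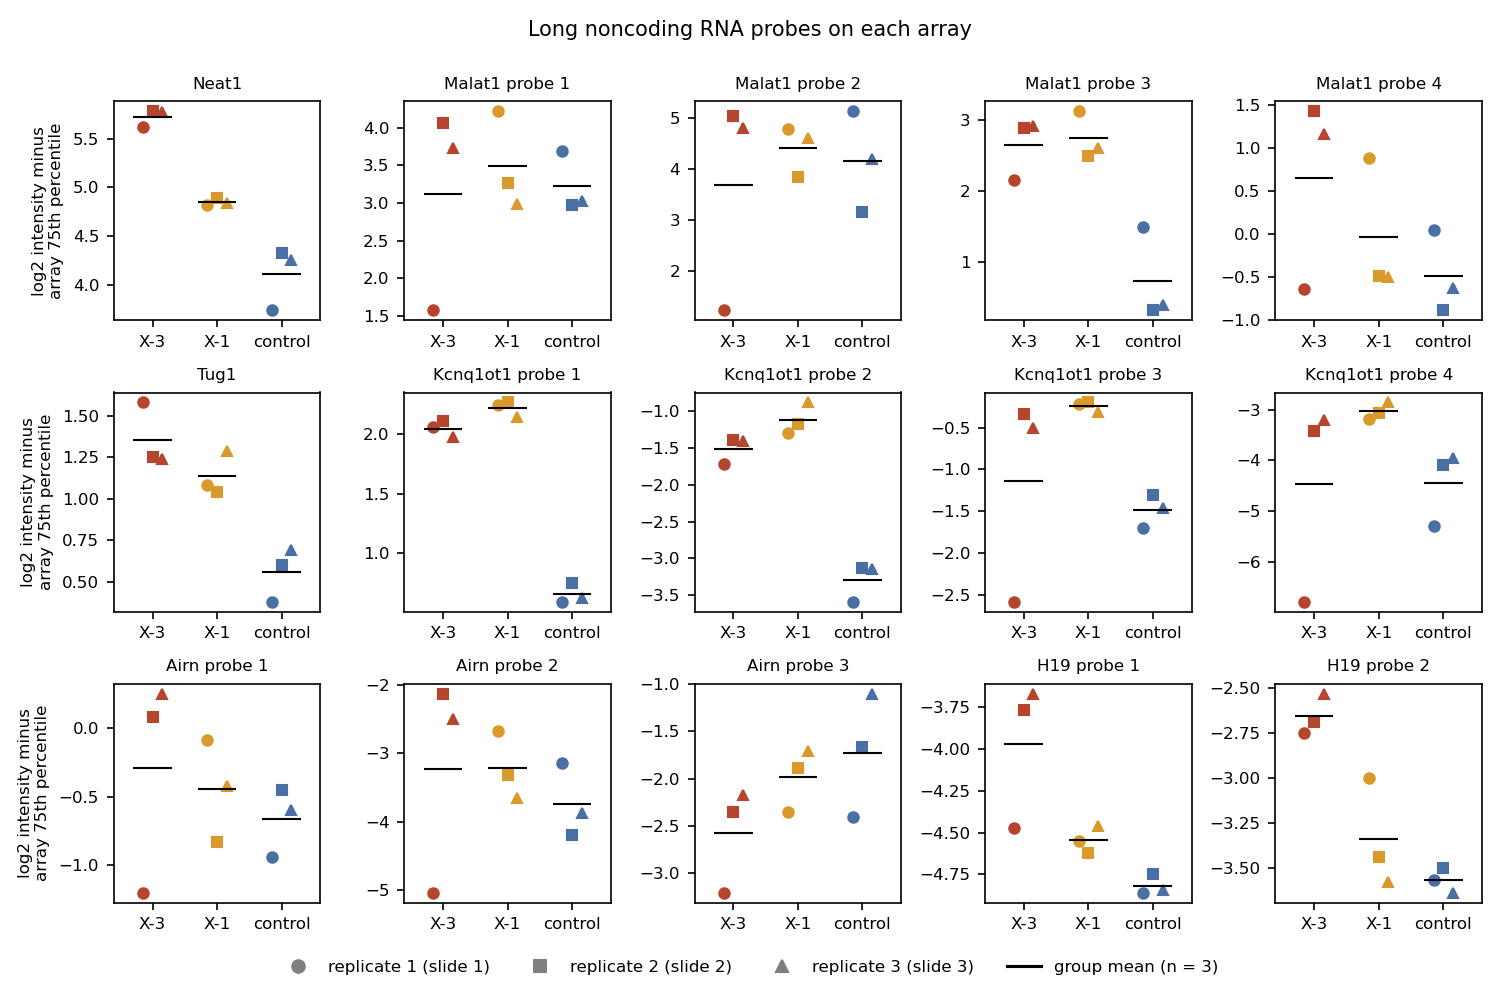
Normalised log2 intensity of the 15 kept probes on each of 9 arrays, with X-3, X-1 and control from left to right; marker shapes give the replicate, which is the slide, and bars give the group mean of 3 arrays. Neat1 orders the groups without overlap, while the X-3 replicate 1 array lies far below the other X-3 arrays for Malat1 probes 1, 2 and 4, Kcnq1ot1 probes 3 and 4 and Airn probes 1 and 2.

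Neat1, the scaffold RNA of paraspeckles, had values of 5.62, 5.78 and 5.77 in X-3 replicates 1, 2 and 3. It had 4.82, 4.89 and 4.84 in X-1 cells and 3.74, 4.33 and 4.26 in control cells. The 3 groups did not overlap, with X-3 highest and control lowest. The difference was 1.62 ± 0.16 log2 (SE, limma, adjusted p = 5.51e-05) for X-3 minus control, a 3.06-fold higher signal, and 1.67 ± 0.18 without X-3 replicate 1 (adjusted p = 8.91e-05). For X-1 minus control it was 0.74 ± 0.16 (limma, adjusted p = 0.00449), or 1.67-fold. On slides 1, 2 and 3 the X-3 minus control difference was 1.88, 1.45 and 1.51, and the X-1 minus control difference was 1.08, 0.56 and 0.58.

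Tug1, an RNA that binds repressive chromatin complexes, had values of 1.58, 1.25 and 1.24 in X-3 cells, 1.08, 1.04 and 1.29 in X-1 cells and 0.38, 0.60 and 0.69 in control cells. Each treated group lay above control without overlap, while the X-3 and X-1 ranges overlapped. It rose by 0.80 ± 0.15 log2 in X-3 cells (limma, adjusted p = 0.00191) and by 0.58 ± 0.15 in X-1 cells (adjusted p = 0.01), both against control. Without X-3 replicate 1 the X-3 difference was 0.69 ± 0.14 (limma, adjusted p = 0.00263). With the median as the scaling point, the X-1 difference was 0.38 and did not pass (limma, adjusted p = 0.182). The X-3 minus X-1 difference of 0.22, with a 95% interval of -0.12 to 0.56, did not pass the test, and it was 0.11 without X-3 replicate 1.

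Kcnq1ot1, the antisense RNA that silences the Kcnq1 imprinted domain, is a long unspliced transcript. Its kept probes are described as an upstream and a downstream pair, which parted on the array of X-3 replicate 1. On every other treated array all its kept probes lay above the control array of the same slide. Probe 1 starts at base 19359 of its listed transcript, so neither pair reads the start of the RNA. It had values of 2.06, 2.11 and 1.98 in X-3 cells, 2.25, 2.27 and 2.15 in X-1 cells and 0.59, 0.75 and 0.62 in control cells. Probe 2, 19470 bases downstream, had -1.72, -1.39 and -1.41 in X-3 cells, -1.29, -1.17 and -0.88 in X-1 cells and -3.59, -3.13 and -3.15 in control cells. On both probes every treated array lay above every control array. Probe 1 rose by 1.40 ± 0.11 log2 in X-3 cells (limma, adjusted p = 1.31e-05) and by 1.57 ± 0.11 in X-1 cells (adjusted p = 5.67e-06). Probe 2 rose by 1.79 ± 0.18 in X-3 cells (limma, adjusted p = 5.09e-05) and by 2.18 ± 0.18 in X-1 cells (adjusted p = 1.36e-05), which is 3.45-fold and 4.53-fold. Without X-3 replicate 1 the X-3 differences were 1.40 on Kcnq1ot1 probe 1 and 1.89 on probe 2 (limma, adjusted p = 2.13e-05 and 5.18e-05).

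Both probes of the downstream pair were above control in X-1 cells, and both were low on 1 array of X-3. Probe 3 of Kcnq1ot1 had -2.58, -0.34 and -0.50 in X-3 cells, -0.22, -0.20 and -0.31 in X-1 cells and -1.70, -1.31 and -1.46 in control cells. Probe 4 had -6.79, -3.42 and -3.21 in X-3 cells, -3.18, -3.06 and -2.86 in X-1 cells and -5.29, -4.10 and -3.96 in control cells. On both probes X-1 lay above control without overlap, X-3 replicates 2 and 3 lay above control, and X-3 replicate 1 lay below every control array. On probe 4 that array was the only one of 9 that was not well above background. With all 9 arrays the X-1 minus control difference was 1.25 ± 0.51 on probe 3 (limma, adjusted p = 0.0647) and 1.42 ± 0.85 on probe 4 (adjusted p = 0.186). With the slide as a block, probe 3 passed (limma, adjusted p = 0.0481).

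Without X-3 replicate 1 the spread shared by the groups was smaller and both downstream probes passed in both treated groups. The X-3 minus control difference was then 1.07 ± 0.14 on Kcnq1ot1 probe 3 (limma, adjusted p = 0.000278) and 1.13 ± 0.36 on probe 4 (adjusted p = 0.0241). With that array they were 0.35 and -0.02. The X-1 minus control differences stayed at 1.25 and 1.42, now with adjusted p of 5e-05 and 0.00484 in the limma fit. So 4 of 4 kept Kcnq1ot1 probes, which read 1 RNA, passed as higher in both treated groups when that array was left out. With it, 2 of 4 did so. Of all probes, 33.5% passed as higher in X-3 and 33.7% in X-1 cells without that array. With it the shares were 28.5% and 28.0%.

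**Figure D2:**
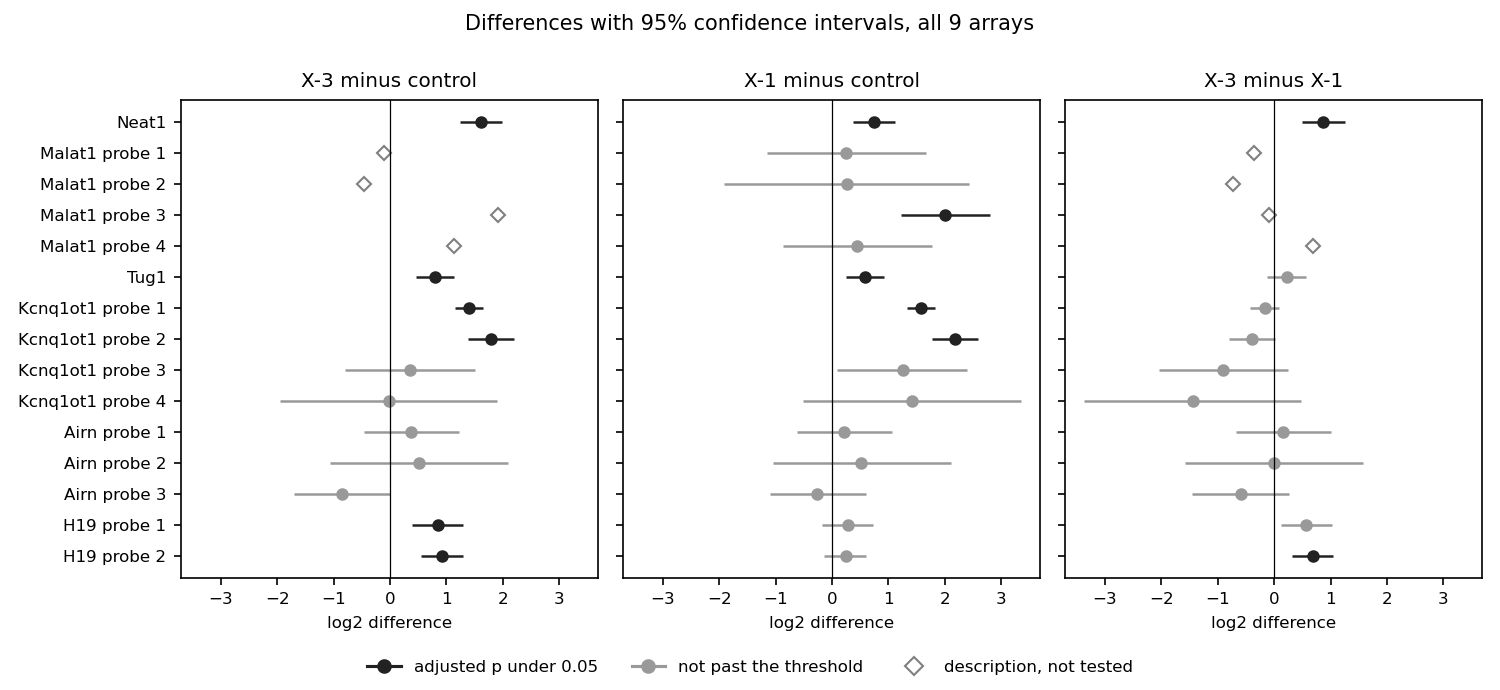
Log2 difference with its 95% confidence interval for each kept probe in the 3 comparisons, from the limma fit over all 9 arrays; dark points passed an adjusted p of 0.05, grey points did not, and open diamonds are Malat1 values given as a description. The upstream Kcnq1ot1 probes, Neat1 and Tug1 lie right of 0 in both comparisons with control, and the H19 probes do so in the X-3 comparison.

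H19, a maternally expressed RNA and precursor of a microRNA that is high in fetal tissue and muscle, was well above background on every array. Probe 1 had -4.47, -3.77 and -3.67 in X-3 cells, -4.55, -4.62 and -4.46 in X-1 cells and -4.86, -4.75 and -4.84 in control cells. Probe 2 had -2.75, -2.69 and -2.53 in X-3 cells, -3.0, -3.44 and -3.58 in X-1 cells and -3.57, -3.50 and -3.64 in control cells. Every X-3 array lay above every control array on both probes. H19 rose in X-3 cells by 0.85 ± 0.20 log2 on probe 1 (limma, adjusted p = 0.00663) and by 0.92 ± 0.16 on probe 2 (adjusted p = 0.00141). With normexp background correction the probe 1 difference was 0.26 and did not pass (limma, adjusted p = 0.405). The X-1 minus control differences were 0.28 ± 0.20 and 0.24 ± 0.16, with adjusted p of 0.276 and 0.252 in limma. When X-3 replicate 1 was left out, the X-3 differences were 1.1 and 0.97 (limma, adjusted p = 6.42e-05 and 0.00166), and H19 probe 1 passed for X-1 as well (adjusted p = 0.0364).

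Airn, which silences Igf2r on the paternal chromosome, had 3 probes that did not move together. Probe 1 had -1.20, 0.08 and 0.25 in X-3 cells, -0.09, -0.83 and -0.42 in X-1 cells and -0.94, -0.45 and -0.60 in control cells. Probe 2 had -5.04, -2.13 and -2.50 in X-3 cells, -2.68, -3.32 and -3.65 in X-1 cells and -3.14, -4.20 and -3.88 in control cells. On both probes X-3 replicates 2 and 3 lay above every control array and X-3 replicate 1 lay below every one. Probe 3, the most downstream, had -3.21, -2.35 and -2.17 in X-3 cells, -2.35, -1.89 and -1.71 in X-1 cells and -2.41, -1.67 and -1.10 in control cells, and all its groups overlapped. Over 9 arrays the X-3 minus control differences were 0.37 ± 0.37, 0.52 ± 0.69 and -0.85 ± 0.37, with limma adjusted p of 0.421, 0.553 and 0.0855.

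The X-3 minus control differences of Airn had opposite signs along the RNA with all arrays, and which of them passed depended on the fit. Without X-3 replicate 1, probes 1 and 2 were higher in X-3 than in control cells by 0.83 ± 0.23 and 1.43 ± 0.36 log2 (limma, adjusted p = 0.0133 and 0.00857). Probe 3 was then at -0.53 ± 0.35 (limma, adjusted p = 0.219). With the slide as a block and all 9 arrays, probe 3 was lower in X-3 cells by the same -0.85 log2, now past the threshold (limma, adjusted p = 0.00375), while probes 1 and 2 did not pass (adjusted p = 0.423 and 0.592). The probe 3 difference was -0.80, -0.68 and -1.06 on slides 1, 2 and 3. It also passed with quantile normalization, with median scaling (-1.05), with the deposited scores and without control replicate 1 (-1.19, adjusted p = 0.0238). Without slide 1, a fit on 2 arrays a group, all 3 Airn probes passed, probes 1 and 2 at 0.69 and 1.73 and probe 3 at -0.87 (limma, adjusted p = 0.01, 0.000462 and 0.00941). In that fit 17808 of all 25288 probes passed, 9476 higher and 8332 lower. In X-1 cells no Airn probe passed, with differences of 0.21, 0.52 and -0.26 log2 (limma, adjusted p = 0.65, 0.549 and 0.588).

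Malat1, an abundant RNA of nuclear speckles, was read by 4 probes. Probe 1 had 1.57, 4.07 and 3.73 in X-3 cells, 4.22, 3.26 and 2.98 in X-1 cells and 3.69, 2.97 and 3.03 in control cells. Probe 2 had 1.22, 5.05 and 4.82 in X-3 cells, 4.80, 3.85 and 4.62 in X-1 cells and 5.14, 3.15 and 4.20 in control cells. X-3 replicate 1 was the lowest of all 9 arrays on both probes, and X-3 replicates 2 and 3 lay above the control arrays of slides 2 and 3. Malat1 was picked on X-3 replicate 1, so its values on that array are a description and no evidence. Probe 3 had 2.16, 2.88 and 2.91 in X-3 cells, 3.12, 2.49 and 2.61 in X-1 cells and 1.49, 0.32 and 0.39 in control cells. On probe 3 every X-1 array and X-3 replicates 2 and 3 lay above every control array. Probe 4 had -0.64, 1.43 and 1.17 in X-3 cells, 0.88, -0.49 and -0.50 in X-1 cells and 0.05, -0.89 and -0.63 in control cells, and its groups overlapped.

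In X-1 cells 1 of 4 Malat1 probes, which read 1 RNA, passed as higher, where 28.0% of all probes did so. Probe 3 was 2.01 ± 0.35 log2 higher than in control cells (limma, adjusted p = 0.00112), or 4.03-fold, with 1.63, 2.17 and 2.23 on the 3 slides. The other Malat1 probes differed by 0.25 ± 0.62, 0.26 ± 0.95 and 0.45 ± 0.58 and did not pass (limma, adjusted p from 0.535 to 0.837). All groups share 1 spread in this fit, so these errors include X-3 replicate 1, on which Malat1 was picked. Without that array the X-1 difference of probe 3 was 2.01 ± 0.31 (limma, adjusted p = 0.000647). The SEs of probes 1, 2 and 4 were then 0.33, 0.47 and 0.39, and these probes still did not pass (limma, adjusted p = 0.521, 0.647 and 0.338). With all 9 arrays the X-3 minus control values were -0.11, -0.47, 1.92 and 1.14 on probes 1 to 4, as a description. Without X-3 replicate 1 they were 0.67 ± 0.37, 0.77 ± 0.52, 2.17 ± 0.35 and 1.79 ± 0.44, of which probes 3 and 4 passed (limma, adjusted p = 0.147, 0.229, 0.000907 and 0.00783). Of all probes, 33.5% passed as higher in X-3 cells without that array. Without the whole of slide 1, all 4 Malat1 probes were higher in X-3 than in control cells, by 0.90, 1.25, 2.55 and 2.06 (limma, adjusted p = 0.00293, 0.0311, 2.03e-05 and 7.07e-05). That fit rests on 2 arrays a group, and 17808 of all 25288 probes passed in it, 9476 of them higher.

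**Figure D3:**
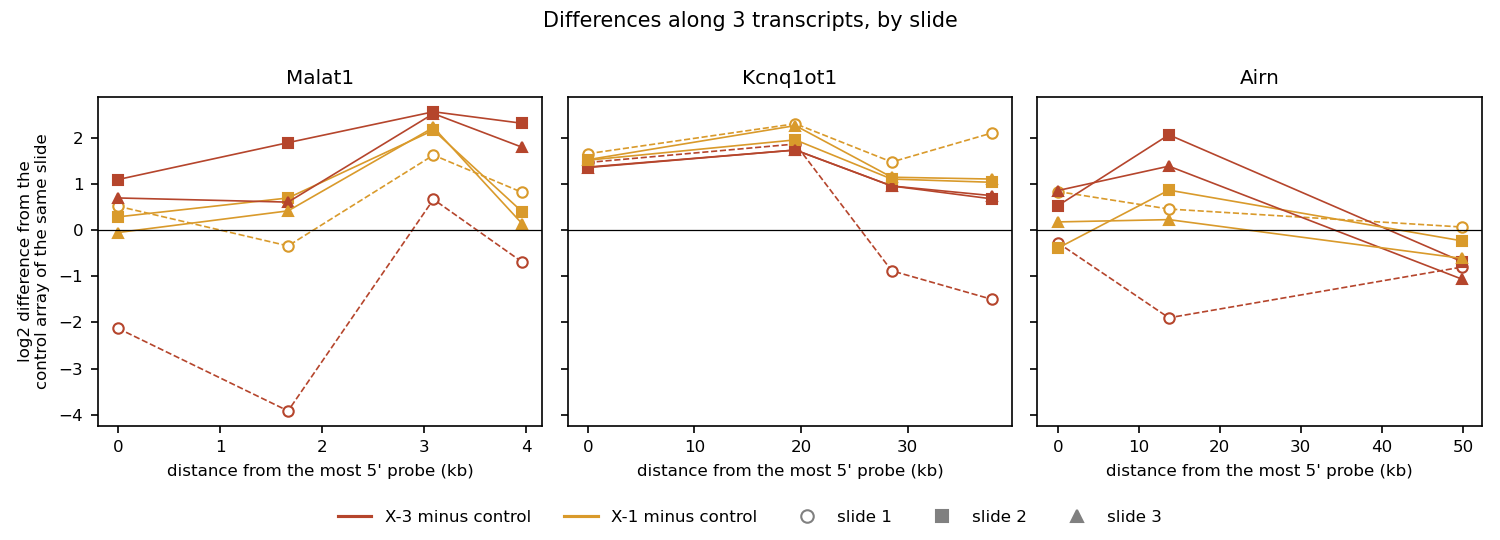
Log2 difference from the control array of the same slide, against distance from the most 5′ kept probe in kb, for X-3 (red) and X-1 (amber); slide 1 has open circles and dashed lines. On slide 1 the X-3 values for Malat1 were -3.92 at probe 2 and 0.67 at probe 3, and for Kcnq1ot1 they were 1.87 at probe 2 and -1.50 at probe 4.

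The low values of X-3 replicate 1 were uneven along single RNAs. Against the mean of X-3 replicates 2 and 3 this array differed by -2.33, -3.72, -0.74 and -1.94 log2 on Malat1 probes 1 to 4. On Kcnq1ot1 probes 1 to 4 it differed by 0.01, -0.32, -2.16 and -3.48, and on Airn probes 1 to 3 by -1.37, -2.73 and -0.95. The value on Kcnq1ot1 probe 4 comes from a signal that was not well above background on this array, so its size is not exact. The single probes of Neat1 and Tug1 differed by -0.15 and 0.34, and the H19 probes by -0.75 and -0.14. In all, 7 of 15 kept probes, from 3 RNAs, lay over 1 log2 unit below both other X-3 arrays, beside 10.9% of all kept probes on that array and 0.0712% to 0.637% on the other 8. Since Malat1 was chosen on this array, its 3 probes in that count are no evidence. The part that this array's general departure plays in these values was not tested.

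How far probes of 1 RNA followed each other over the 9 arrays was described by Pearson's r, across arrays that share 3 groups and 3 slides. For Kcnq1ot1, r was 0.98 between probes 1 and 2 and 0.95 between probes 3 and 4, but 0.32 between probes 1 and 4. For Malat1 it was 0.91 between probes 1 and 2 and 0.27 between probes 2 and 3. For Airn it was 0.77 between probes 1 and 2 and 0.07 between probes 2 and 3. The H19 probes gave 0.84. These r values include X-3 replicate 1, which was low on Malat1 probes 1, 2 and 4 and Kcnq1ot1 probes 3 and 4. It was also low on Airn probes 1 and 2. Malat1 was picked on that array, so its r values are no evidence on how its probes agree. The part of that array in these r values was not tested.

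Over the kept probes together, 6 of 11 tested (54.5%) were higher in X-3 than in control cells and 0 lower, where 54.0% of all 25288 probes passed in either direction and 28.5% passed as higher. For X-1 against control 5 of 15 (33.3%) were higher and 0 lower, where 54.7% of all probes passed in either direction and 28.0% as higher. The share of these probes called was thus near or below that of the whole array in either direction. The median difference over the tested probes was 0.80 for X-3 and 0.52 for X-1, beside 0.06 and 0.09 over all probes. In the fit that left out X-3 replicate 1, 12 of 15 were higher in X-3 (80.0%) and 8 of 15 in X-1 cells (53.3%). Beside this, 62.7% and 64.5% of all probes passed in either direction, and 33.5% and 33.7% as higher. Both comparisons use the same control arrays.

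Scaling each array on its median rather than its 75th percentile moved the median of all differences from control to -0.15 for X-3 and -0.11 for X-1. The calls over all probes were then 4864 higher and 7370 lower for X-3 and 5094 higher and 7459 lower for X-1, against 7197 and 6470 for X-3 and 7080 and 6760 for X-1 in the main scaling. Each difference of a named RNA shifts by the same amount. The rises of Neat1, of Kcnq1ot1 probes 1 and 2 and of Malat1 probe 3 in X-1 cells, and those of Neat1, Tug1, Kcnq1ot1 probes 1 and 2 and H19 in X-3 cells, stayed past the threshold under that scaling.

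Set directly against each other at the same dose and time, X-3 and X-1 differed on 2 of the 11 tested probes (18.2%), both higher in X-3, where 9.07% of all 25288 probes passed in either direction and 5.75% as higher in X-3. Neat1 was higher in X-3 cells by 0.87 ± 0.16 log2 (95% interval 0.50 to 1.25, limma, adjusted p = 0.0174), with 0.80, 0.89 and 0.93 on slides 1, 2 and 3. Without X-3 replicate 1 it was 0.93 for Neat1 and 0.73 for H19 probe 2 (limma, adjusted p = 0.0134 and 0.0261). With all arrays H19 probe 2 was higher by 0.68 ± 0.16 (95% interval 0.31 to 1.05, limma, adjusted p = 0.037), with 0.25, 0.75 and 1.05 on the slides. With the slide as a block the H19 difference did not pass (limma, adjusted p = 0.0574), while Neat1 did (adjusted p = 0.0231). Neat1 missed the threshold without X-1 replicate 2 or 3 and without X-3 replicate 2 or 3 (limma, adjusted p from 0.0611 to 0.0669). H19 probe 2 missed it without any 1 array other than X-1 replicate 1 or X-3 replicate 1 (limma, adjusted p from 0.0502 to 0.131). H19 probe 1 differed by 0.57 with an interval of 0.12 to 1.03 (limma, adjusted p = 0.112), and by 0.82 ± 0.11 without X-3 replicate 1 (adjusted p = 0.00572).

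The Kcnq1ot1 probes did not separate the compounds at the threshold. Probes 1 and 2 differed by -0.17 (95% interval -0.42 to 0.08) and -0.39 (-0.80 to 0.01), X-3 minus X-1, with the lower value in X-3 on all 3 slides of both, and by -0.18 and -0.29 without X-3 replicate 1. Probes 3 and 4 differed by -0.90 (-2.05 to 0.25) and -1.44 (-3.37 to 0.48), and also by -0.18 and -0.29 without that array. The intervals of probes 3 and 4 with all arrays allow differences of several fold. The Airn probes differed by 0.16, -0.004 and -0.59, with an interval from -1.58 to 1.57 on probe 2, and by 0.62, 0.91 and -0.28 without X-3 replicate 1. With X-3 replicate 1 left out, 3 of 15 probes passed, Neat1 and both H19 probes, all higher in X-3 (20.0%, beside 19.5% of all probes in either direction and 10.1% as higher).

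Genes whose signal followed each RNA most closely were ranked by Pearson's r over the 9 arrays among other named probes, with the same groups and slides behind every point. Neat1 was most like a probe of Dlk1, a preadipocyte surface protein of the Meg3 domain (r = 0.995), whose group means were 7.32 in X-3, 6.63 in X-1 and 6.14 in control cells. The brightest Dlk1 probe, used for gene lists below, showed smaller differences. Kcnq1ot1 probe 1 was most like Pgk1, a glycolytic enzyme, with Tbl2 and Chka next (r = 0.998, 0.998 and 0.997), and probe 2 most like Higd1a, a mitochondrial protein that hypoxia induces (r = 0.998). Pgk1 averaged 7.92 in X-3, 8.13 in X-1 and 5.33 in control cells. Downstream, probe 3 was most like Camk2d, Suz12 and Sltm and probe 4 most like Prrx1, Foxp1 and Fnbp1l (r from 0.988 to 0.993), all of which had larger differences from control in X-1 than in X-3 cells, where X-3 replicate 1 enters the mean. Tug1 was most like Tgfbr2, a receptor of TGF-beta (r = 0.988), H19 probe 2 most like Fem1al (r = 0.991), and Malat1 probe 3 most like Usp47 (r = 0.995).

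The promoters of Kcnq1ot1 and Malat1 are shown because, of the 5 RNAs with a promoter entry, these held the letters ACGTG. They run from 250 bases before to 50 after the start, from RefSeq on GRCm38.p6, which is another build than that of the probe coordinates, at chr7:143296498-143296797 and chr19:5802623-5802922, both on the minus strand. Capitals mark ACGTG on either strand, where CACGT is its reverse complement.
Kcnq1ot1 promoter: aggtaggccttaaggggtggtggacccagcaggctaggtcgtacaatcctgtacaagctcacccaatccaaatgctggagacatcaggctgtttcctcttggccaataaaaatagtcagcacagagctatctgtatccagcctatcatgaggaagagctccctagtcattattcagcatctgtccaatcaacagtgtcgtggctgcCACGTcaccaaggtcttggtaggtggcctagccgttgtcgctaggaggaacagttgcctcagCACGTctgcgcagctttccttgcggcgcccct
Malat1 promoter: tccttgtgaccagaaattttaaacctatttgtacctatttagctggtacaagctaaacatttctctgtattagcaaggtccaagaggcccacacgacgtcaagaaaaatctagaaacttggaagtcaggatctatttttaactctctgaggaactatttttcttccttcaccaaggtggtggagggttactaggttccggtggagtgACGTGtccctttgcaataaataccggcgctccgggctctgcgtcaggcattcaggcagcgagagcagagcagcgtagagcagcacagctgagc

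The search looked for ACGTG and GCGTG on both strands, the core letters of hypoxia response elements. They differ in the first letter, so no stretch is both, and CACGTG holds ACGTG on either strand. Promoter entries were found for 5 of the 7 RNAs, with 2 starts for Meg3. Kcnq1ot1 held ACGTG at 2 places and Malat1 at 1, Tug1 held GCGTG at 1, and the Airn and Meg3 windows held neither. Over all 32851 promoters of that length, 19.6% held ACGTG, 32.4% held GCGTG and 43.8% held either. A match is a description of letters, and no match says only that the letters are not in this window.

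Neighbouring genes of the imprinted RNAs were described next, since cis silencing is what Kcnq1ot1 and Airn are known for. Each gene is given by its brightest kept probe. Of 9 measured neighbours of Kcnq1ot1, 3 were lower and 0 higher than control in each treated group, where 25.6% of all probes were lower in X-3 and 26.7% in X-1. Osbpl5, an oxysterol-binding protein family gene, fell by 1.57 ± 0.16 log2 in X-3 cells and fell by 1.44 ± 0.16 in X-1 cells (limma, adjusted p = 4.84e-05 and 6.79e-05). Slc22a18, an organic cation transporter gene, fell by 0.65 ± 0.15 in X-3 cells and fell by 0.81 ± 0.15 in X-1 cells (limma, adjusted p = 0.00611 and 0.00174). Trpm5, a cation channel known from taste cells, averaged -4.54 ± 0.39 in X-3, -6.20 ± 0.41 in X-1 and -0.87 ± 0.08 in control cells (SD, n = 3 each). In X-1 cells it was not well above background on any array, which makes it at least 26.1-fold lower there (adjusted p = 7.81e-07, limma), while in X-3 cells it fell by 3.67 ± 0.25 (adjusted p = 5.52e-06). This bound sets the control mean against the lowest signal well above background on each X-1 array or the probe's own signal, whichever was higher.

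Kcnq1 and Cdkn1c, textbook targets of the domain, did not pass with all arrays. Kcnq1 differed by -0.31 ± 0.16 in X-3 and -0.06 ± 0.16 in X-1 cells (limma, adjusted p = 0.13 and 0.777). Cdkn1c, a cell cycle inhibitor gene, differed by 0.86 ± 0.67 in X-3 and 1.28 ± 0.67 in X-1 cells (limma, adjusted p = 0.305 and 0.134), with 0.10, 1.58 and 0.90 on the X-3 slides and 0.55, 2.57 and 0.73 on the X-1 slides. Leaving out X-3 replicate 1, the count for X-3 was 5 lower of 9, where 29.2% of all probes were lower in that fit, with Kcnq1 at -0.45 and the tetraspanin gene Cd81 at -0.53 added (limma, adjusted p = 0.0157 and 0.0074). Ascl2, Tssc4 and Nap1l4 differed by 0.40, 0.23 and -0.07 in X-3 and by 0.07, 0.05 and 0.15 in X-1 cells, none past the threshold.

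**Figure D4:**
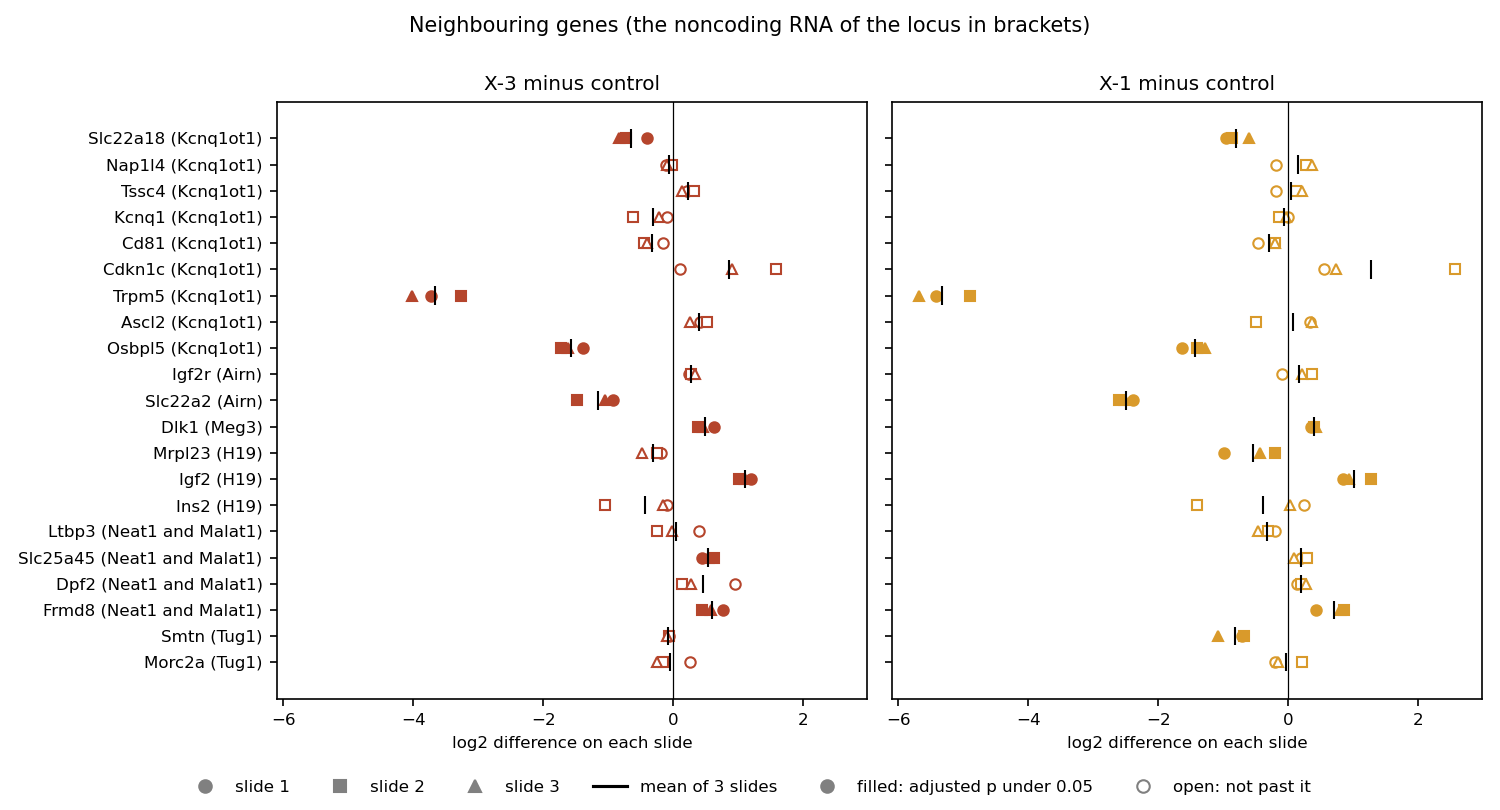
Log2 difference from the control array of the same slide for each neighbour described, X-3 in the left panel and X-1 in the right; filled markers belong to genes with an adjusted p under 0.05, vertical bars give the mean of 3 slides, and the noncoding RNA of the locus is in brackets. Osbpl5 and Trpm5 lie left of 0 and Igf2 and Frmd8 right of 0 on every slide of both panels. Slc22a2 is filled by the same rule, but it passed the filter only through the control arrays and is a description with no test.

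At the Airn domain 2 neighbours are described. Igf2r, the silenced receptor gene, differed by 0.28 ± 0.20 in X-3 and 0.16 ± 0.20 in X-1 cells and did not pass (limma, adjusted p = 0.258 and 0.521). Slc22a2, an organic cation transporter gene, was not well above background in either treated group, at least 1.55-fold lower in X-3 and at least 1.26-fold lower in X-1 than in control cells. It passed the filter only through the control arrays, where it was high, so these bounds are a description with no test.

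At the H19 domain Igf2, the growth factor gene that shares enhancers with H19, rose by 1.11 ± 0.23 in X-3 and 1.02 ± 0.23 in X-1 cells (limma, adjusted p = 0.0033 and 0.00476). For X-3 minus X-1, Igf2 differed by 0.09 (95% interval -0.44 to 0.61). Mrpl23, a mitochondrial ribosomal protein gene, differed by -0.31 ± 0.18 in X-3 and fell by 0.54 ± 0.18 in X-1 cells (limma, adjusted p = 0.185 and 0.0318). Ins2 differed by -0.43 and -0.38 and did not pass.

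At the Meg3 domain only Dlk1 was measured, of 6 listed genes. It averaged 8.55 ± 0.04 in X-3, 8.45 ± 0.19 in X-1 and 8.06 ± 0.16 in control cells (SD, n = 3 each), and it passed the background test on 9 of 9 arrays, where Meg3 did so on 0. Its rise of 0.49 ± 0.14 in X-3 and 0.39 ± 0.14 in X-1 cells (limma, adjusted p = 0.0169 and 0.0422) did not pass with quantile normalization, median scaling, the deposited scores or without control replicate 1. Meg3 probe 1, without a call, averaged -7.31 in X-3, -6.53 in X-1 and -8.05 in control cells.

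Around Neat1 and Malat1, which lie side by side on chromosome 19, Frmd8 rose by 0.60 ± 0.15 in X-3 and 0.70 ± 0.15 in X-1 cells (limma, adjusted p = 0.00903 and 0.00387). Slc25a45, a mitochondrial carrier gene, rose by 0.54 ± 0.11 in X-3 cells (limma, adjusted p = 0.00332) and differed by 0.19 in X-1 cells (adjusted p = 0.183). Dpf2 and Ltbp3 did not pass. Next to Tug1, Smtn, a smooth muscle cytoskeletal gene, fell by 0.82 ± 0.15 in X-1 cells (limma, adjusted p = 0.00147) but differed by -0.08 in X-3 cells (adjusted p = 0.669), and was higher in X-3 than in X-1 by 0.74 ± 0.15 (adjusted p = 0.0214). Morc2a did not pass in any comparison.

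Partner proteins of these RNAs moved in both directions. Of 24 measured paraspeckle protein genes, 5 were higher and 2 lower in X-3 cells and 6 higher and 1 lower in X-1 cells, with medians of 0.01 and 0.25. That is 29.2% called in either direction in each group, below the 54.0% and 54.7% of all probes. The X-3 count was 5 higher and 4 lower without X-3 replicate 1. Among them the RNA-binding protein genes Dazap1, Rbm14 and Ewsr1 rose in X-3 cells by 1.89, 1.44 and 1.15 log2, and in X-1 cells by 1.82, 1.73 and 1.27. Cirbp, the cold-inducible RNA-binding protein gene, fell by 3.39 ± 0.21 in X-3 cells and fell by 3.72 ± 0.21 in X-1 cells (limma, adjusted p = 3.86e-06 and 1.86e-06). Rbmx was lower in X-3 than in X-1 cells by -0.83 ± 0.19 (limma, adjusted p = 0.0313).

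Of 21 splicing speckle genes, 3 were higher and 2 lower in X-3 cells, and 7 higher and 1 lower in X-1 cells. These are 23.8% and 38.1% called in either direction, again below the 54.0% and 54.7% of all probes. The splicing factor genes Srsf10 and Srsf3 went opposite ways: Srsf10 rose by 2.16 ± 0.12 in X-3 and 2.18 ± 0.12 in X-1 cells, and Srsf3 fell by 2.69 ± 0.18 in X-3 cells and fell by 2.28 ± 0.18 in X-1 cells (limma, adjusted p of 9.23e-06 or less for all 4). Pnn, Srsf6 and Srsf1 were lower in X-3 than in X-1 cells by -0.73, -0.75 and -0.56 (limma, adjusted p = 0.019, 0.0204 and 0.0345). Leaving out X-3 replicate 1, the counts for X-3 were 5 higher and 5 lower.

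Of 16 silencing genes, 4 were higher and 5 lower in X-3 cells and 5 higher and 4 lower in X-1 cells. The share called, 56.2% in each group, was near the 54.0% and 54.7% of all probes. When X-3 replicate 1 was left out, the X-3 count was 2 higher and 5 lower. Eed, a Polycomb subunit, rose by 0.83 ± 0.16 in X-3 and 1.51 ± 0.16 in X-1 cells (limma, adjusted p = 0.00224 and 6.22e-05), and Hnrnpu, a nuclear matrix protein gene, by 1.04 ± 0.17 and 1.42 ± 0.17 (adjusted p = 0.000861 and 0.00012). Zfp57, which keeps imprints, fell by 0.97 ± 0.19 in X-3 cells and fell by 2.08 ± 0.19 in X-1 cells (limma, adjusted p = 0.00262 and 2.74e-05), while Dnmt1, the maintenance DNA methyltransferase gene, fell by 0.70 ± 0.17 in X-3 cells and fell by 1.19 ± 0.17 in X-1 cells (adjusted p = 0.00671 and 0.000326). Zfp57 was higher in X-3 than in X-1 by 1.1 ± 0.19 and Eed lower by -0.67 ± 0.16 (limma, adjusted p = 0.0136 and 0.0373).

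Other noncoding RNAs give the scale of these changes. Of 56 listed, 32 had a probe and 25 were measured. In X-3 cells 14 were higher and 3 lower with a median of 0.63, and in X-1 cells 13 were higher and 2 lower with a median of 0.88. The shares higher were 56% and 52%, beside 28.5% and 28.0% of all probes, and the filter can favour RNAs that are high in 1 group. The X-3 count without X-3 replicate 1 was 15 higher and 3 lower. Terc, the telomerase RNA, rose by 2.83 ± 0.16 in X-3 cells and 2.81 ± 0.16 in X-1 cells (limma, adjusted p = 2.58e-06 and 1.94e-06), and the snoRNA host genes Zfas1, Snhg16 and Snhg7 rose by 2.02, 1.99 and 1.71 in X-3 cells and by 1.99, 1.80 and 2.28 in X-1 cells. With all arrays none of these 3 host genes passed between X-3 and X-1 (limma, adjusted p from 0.0984 to 0.921), and Snhg7 was lower in X-3 by -0.76 without X-3 replicate 1 (adjusted p = 0.0149). Firre, a nuclear RNA of the X chromosome, fell by 2.09 ± 0.15 in X-3 cells and fell by 2.30 ± 0.15 in X-1 cells (limma, adjusted p = 8.06e-06 and 3.79e-06). Of the 25, only Dubr passed in that comparison with all arrays, and it was lower in X-3 than in X-1 by -0.99 ± 0.17 (limma, adjusted p = 0.0122).

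Of 38 measured imprinted coding genes, 7 were higher and 16 lower in X-3 cells, with a median of -0.31, and 8 higher and 16 lower in X-1 cells, with a median of -0.23. The share lower was 42.1% in each group, beside 25.6% and 26.7% of all probes, and the shares higher were 18.4% and 21.1%, beside 28.5% and 28.0%. The filter can favour genes that are high in 1 group. These counts hold Slc22a2 as lower and Wt1 as higher, each of which passed the filter through only 1 group. The count for X-3 was 9 higher and 18 lower when X-3 replicate 1 was left out. Mest, a paternally expressed gene linked to the growth of fat tissue, fell by 3.29 ± 0.21 in X-3 cells and fell by 3.62 ± 0.21 in X-1 cells (limma, adjusted p = 4.66e-06 and 2.18e-06). Slc38a4, an amino acid transporter gene, fell by 2.34 ± 0.13 in X-3 cells and fell by 2.69 ± 0.13 in X-1 cells, and Plagl1, a zinc finger gene, fell by 2.17 ± 0.18 in X-3 cells. Wt1 was not well above background in control cells and was at least 1.35-fold higher in X-3 and at least 2.87-fold higher in X-1 cells. In X-3 cells 2 of 3 arrays measured it. It passed the filter only through the X-1 arrays, where it was highest, so these bounds are a description with no test.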

How the data were processed

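Total RNA of 3T3-L1 cells was labelled with Cy3 and hybridised to 9 arrays, 3 per group, grouped by the labels. The deposited scanner files hold intensity values. Per the file headers, Agilent Feature Extraction (version 10.5.1.1 for replicate 1, 10.7.3.1 for replicates 2 and 3) subtracted background. Version 9.1 is named in the submitters' processing notes. A deposited table of the series gives 1 score per probe and array, with mean near 0, SD near 1 and median -0.12 in each column. It followed log2 intensity (r of 0.998 or more) and was used only as an alternative, with its direction taken from that match and genes not centred.

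Spots of 245 probes were averaged and 214 probes with outlier flags were left out of 41174. Intensity was put on the log2 scale and each array's 75th percentile was subtracted. Of 40960 usable probes, 25288 passed the filter, a signal well above background on the 3 arrays of some group. They were fitted with limma 3.58.1 in R 4.3.3 over all 9 arrays, with Benjamini-Hochberg adjustment and a threshold of 0.05, and the fit was tested on simulated data. The number of arrays limits the precision, and p-values measure the spread between these arrays. Probe names came from the files, and 8104 of 41174 were not matched to the RefSeq table.

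Same-numbered arrays share a slide. Their deviations from the group means correlated at 0.53, 0.294 and 0.288 for X-1 and control, at 0.173, 0.061 and 0.196 for X-3 and control, and at -0.122, -0.229 and 0.119 for X-3 and X-1. By the rule that every pair must pass 0.1, only X-1 and control counted as paired. The main fit held group only and did not use this pairing in any comparison. The block is given where it changes a call of the noncoding RNA probes. The RNAs and gene lists were chosen with earlier results of these data known. Named in the text are all the RNAs, the measured neighbours (some are not reported here), at most 4 genes per list and comparison with the largest differences past the threshold and the same sign on all slides, and the 3 genes most like a probe, or the first of them. Alternatives were other scalings, background correction, filters, probe choice, outlier spots, the deposited scores, the slide block and leaving out arrays or slides.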

Additional observations from a re-analysis of the deposited data

Results flagged for a closer look

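Both flagged results are differences between the compounds in the direct X-3 minus X-1 comparison. Neat1 differed by 0.87 log2, with the difference in the same direction on 3 of 3 slides. It stayed past the threshold with the slide as a block, and missed it in 8 alternatives, with limma adjusted p from 0.0507 to 0.374. H19 probe 2 differed by 0.68 log2, also in the same direction on 3 of 3 slides, and missed the threshold in 13 alternatives (limma, adjusted p from 0.0502 to 0.493).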

How the results depend on the processing

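With the block on the replicate number, which is the slide, 14317 probes passed for X-3 minus control, 14464 for X-1 minus control and 2208 for X-3 minus X-1, against 13667, 13840 and 2294. Of the kept noncoding RNA probes, the block changed the calls of Kcnq1ot1 probe 3 (X-1, adjusted p = 0.0481), Airn probe 3 (X-3, 0.00375) and H19 probe 2 (X-3 minus X-1, 0.0574), and no other of their calls. Counts of probes called for X-3 minus X-1 were 652 with median scaling, 1172 with normexp and 652 with no filter. Leaving out arrays or slides gave 7838 to 17808 probes for X-3 minus control, 8877 to 17313 for X-1 minus control and 0 to 9726 for X-3 minus X-1. The 0 came without slide 2 and without slide 3 (2961 and 2779 probes at an unadjusted p under 0.05, limma), 9726 without slide 1 and 4941 without X-3 replicate 1.

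Differences that changed sign were not past the threshold with all arrays. Airn probe 2, at -0.004 for X-3 minus X-1, was 0.02 with quantile normalization, 0.01 with normexp and 0.01 with the deposited scores, and ranged from -0.60 to 1.17 when arrays or slides were left out. In the same way Airn probe 1 ranged from -0.22 to 0.79 for X-3 minus X-1. For X-1 minus control, Malat1 probes 1, 2 and 4 ranged from -0.11 to 0.51, from -0.25 to 0.74 and from -0.0038 to 0.72, and Airn probes 1 and 3 from -0.10 to 0.51 and from -0.60 to 0.06. For X-3 minus control, Kcnq1ot1 probes 3 and 4 ranged from -0.05 to 1.07 and from -0.66 to 1.13, and Airn probe 2 from -0.26 to 1.73. The cause of these changes was not tested, apart from the array left out.

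Without slide 3, Neat1 missed the threshold for X-1 minus control (0.82, adjusted p = 0.0542). Without slide 2 or slide 3, Tug1 (X-1) and H19 probe 1 (X-3) missed it. The rises of Kcnq1ot1 probes 1 and 2 and of Malat1 probe 3 in X-1 cells kept their side of the threshold in each alternative that tested them, 21 for Kcnq1ot1 probe 1 and 20 for each of the other probes. For X-3 minus X-1, H19 probe 1 passed with quantile normalization and with the deposited scores (adjusted p = 0.0395 and 0.0412), and without slide 1 so did Airn probe 2 for X-1 minus control (0.55, adjusted p = 0.0418). Normexp was run on median signals, chosen after seeing the data, since mean signals were not in the files of replicates 2 and 3, and the version on mean signals was not run.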
